A study of Arabidopsis thaliana with 16 samples.

Results

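The 500 most accessible transposase hypersensitive sites (THSs) of the stomatal lineage were selected out of 65351 sites. A THS is a stretch of open chromatin in which the Tn5 transposase of ATAC-seq cut often. For each THS the scaled cutcounts of the 16 libraries were averaged and divided by the length of the site, and the 500 highest values were taken. The rule therefore used the level over all libraries, and the levels per bp below are a description of the selection, with no test. All libraries came from whole Arabidopsis seedlings (Col-0) grown for 3 days, in which nuclei of chosen cells were captured by INTACT, a method that pulls out nuclei bearing a biotinylated envelope protein. Every line carried ACT2pro:BirA, the biotin ligase, and a nuclear tag (NTF) of the WPP envelope domain, RFP and a biotin acceptor under a promoter of 1 lineage state. The states were protoderm (Proto, AtML1 promoter, 3 libraries), meristemoid mother cells (MMC, SPCH promoter, 3 libraries), meristemoids (M, MUTE promoter, 4 libraries), guard mother cells (GMC, FAMA promoter, 3 libraries) and guard cells (GC, GC1 promoter, 3 libraries). A state is thus the set of nuclei in which a promoter was active or its tag persisted, and neighbouring states can share cells. In such bulk captures, fewer cells with a site open and fewer cuts per cell cannot be told apart.

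In the nucleus, open chromatin marks promoters and enhancers where transcription factors displace nucleosomes. Sites near the starts of genes used in most cells tend to be open in all tissues, while enhancers are opened in particular lineages. Plastid and mitochondrial DNA carries no nucleosomes, so it is cut readily when it is left in a nuclear preparation, and pieces of both organelle genomes have been copied into the nuclear chromosomes during evolution. The 45S ribosomal RNA genes (45S rDNA) stand in long tandem arrays of which a reference assembly holds few copies, and reads from all copies pile up on those. In the stomatal lineage, SPCH starts the asymmetric divisions, MUTE ends them and drives commitment, and FAMA drives terminal differentiation.

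The members fell into 4 classes by sequence. By alignment to the TAIR10.1 organelle genomes (at least 90% identity over at least 40 bp), 24 members held sequence of the plastid genome and 14 held sequence of the mitochondrial genome. Another 14 lay in or matched the 45S rDNA, and 448 had none of these matches. A nuclear site and its organelle counterpart can be nearly the same string, as in the most accessible member, THS_32766. Its central stretch at chr3:7104063-7104182 is shown with the plastid stretch it matches (plastid genome 30533 to 30652, minus strand), with the only mismatch in capitals, followed by a stretch of the mitochondrial member THS_13112 at chr1:24274343-24274462, which equals the mitochondrial genome from 253345 to 253464 with 0 mismatches.
THS_32766: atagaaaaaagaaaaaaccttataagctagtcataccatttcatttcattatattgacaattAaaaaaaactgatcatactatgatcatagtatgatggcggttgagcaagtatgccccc
THS_32766 match: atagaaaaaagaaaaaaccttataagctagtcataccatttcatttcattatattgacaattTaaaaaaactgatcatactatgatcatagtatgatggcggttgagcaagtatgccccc
THS_13112: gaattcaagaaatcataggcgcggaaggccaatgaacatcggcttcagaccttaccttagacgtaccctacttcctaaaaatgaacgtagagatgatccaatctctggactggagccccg
All sequences are from RefSeq, build TAIR10.1, plus strand of the chromosome read 5′ to 3′ unless a minus strand is given. A cut in either copy of such a string can align to the nuclear copy.

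The members with no organelle or 45S rDNA match were of other kinds. THS_28150 (chr2:19697182-19698289), the most accessible of them, held 82 copies of AGGGTTT, the telomere repeat (either strand), and its densest part at chr2:19698028-19698117 is printed with the repeats in capitals.
THS_28150: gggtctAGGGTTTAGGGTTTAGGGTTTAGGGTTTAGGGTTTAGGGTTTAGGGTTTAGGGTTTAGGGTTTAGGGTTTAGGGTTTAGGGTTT
Single-copy members lay beside genes. The central 150 bp are printed for 4 of them because the values below turn on them: THS_11245 (chr1:21207138-21207287) upstream of GolS2, THS_08245 (chr1:12550182-12550331) upstream of STOP1, THS_05449 (chr1:8060908-8061057) upstream of GI and THS_33251 (chr3:7911384-7911533) upstream of TIC. THS_08715 (chr1:16511001-16511150), the member with the largest increase in GMC and GC, follows as a multicopy sequence. Capitals mark words counted below: CACGTG in THS_11245 and THS_08715, TATAAA in THS_08245 and THS_33251, TTGACT in THS_08245, and TGGGCC, AAATATCT and AGATAA in THS_05449, on either strand. Runs of A, which were also counted, are not marked.
THS_11245: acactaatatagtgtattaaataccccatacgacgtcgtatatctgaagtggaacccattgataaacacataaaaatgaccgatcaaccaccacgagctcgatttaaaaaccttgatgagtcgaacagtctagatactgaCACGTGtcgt
THS_08245: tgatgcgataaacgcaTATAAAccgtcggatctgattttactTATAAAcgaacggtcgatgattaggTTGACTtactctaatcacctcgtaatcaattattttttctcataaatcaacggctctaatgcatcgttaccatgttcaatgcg
THS_05449: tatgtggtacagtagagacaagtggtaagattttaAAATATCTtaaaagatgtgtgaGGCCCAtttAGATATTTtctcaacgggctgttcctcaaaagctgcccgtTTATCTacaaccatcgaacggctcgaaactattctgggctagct
THS_33251: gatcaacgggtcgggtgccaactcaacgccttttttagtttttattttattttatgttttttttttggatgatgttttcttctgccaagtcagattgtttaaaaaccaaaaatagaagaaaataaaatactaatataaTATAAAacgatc
THS_08715: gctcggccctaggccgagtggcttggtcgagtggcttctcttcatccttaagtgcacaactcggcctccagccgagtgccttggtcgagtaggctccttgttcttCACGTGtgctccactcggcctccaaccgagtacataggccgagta

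The level per bp was very unequal among the members. It ran between 0.928 and 232 scaled cutcounts per bp with a median of 1.07, against a median of 0.248 over all 65351 THSs. The value was 232 at rank 1, 43.6 at rank 10, 1.78 at rank 50, 1.3 at rank 100, 1.07 at rank 250, 0.928 at rank 500 and 0.8 at rank 1000. The curve therefore falls steeply over the first 50 ranks and then has no step at the limit. Just inside it stood THS_34711 (CLC-B, 0.9282), THS_19741 (HMGB4, 0.9280) and THS_07996 (GTL1, 0.9279), and just outside THS_42223 (AT4G11310, 0.9276), THS_09926 (AT1G51400, 0.9275) and THS_33507 (AT3G23090, 0.9272). The members were long, with a median of 470 bp (156 to 3802), against 417 bp for the 500 sites ranked next (the next 500 below) and 230 bp over all THSs.

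**Figure D1:**
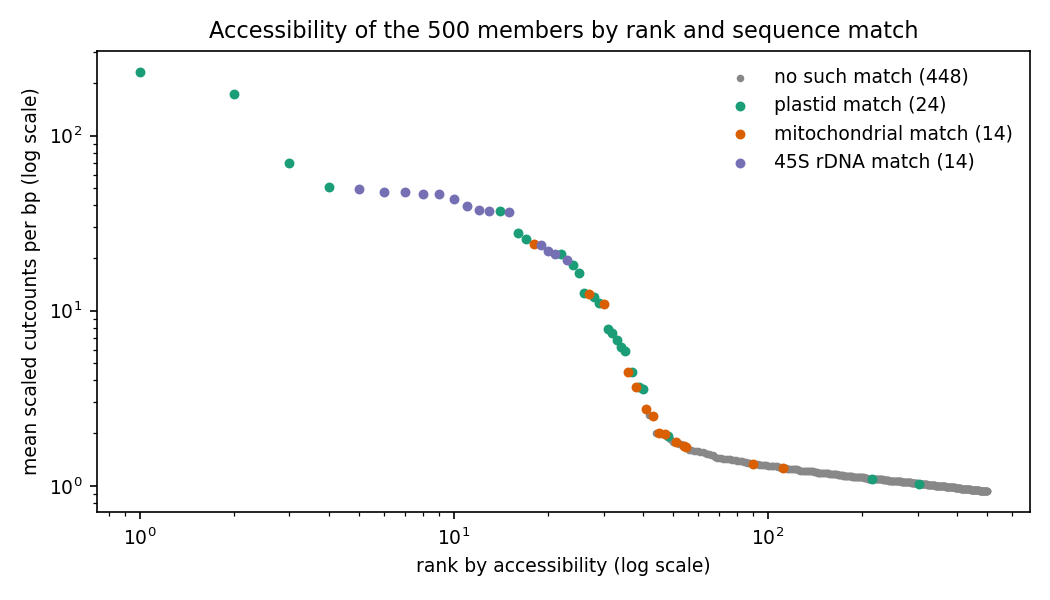
Mean scaled cutcounts per bp (log axis) against the rank of the THS, with the class of each member in colour. The organelle and 45S rDNA members fill most of the first 50 ranks, up to 232, and the members with no such match lie between 0.928 and 2.53.

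The steep part was made of organelle and rDNA sequence. Of the 50 most accessible members, 22 had a plastid match, 9 a mitochondrial match and 14 a 45S rDNA match, leaving 5 with none. The median level was 11.6 scaled cutcounts per bp for plastid (1.03 to 232), 2.26 for mitochondrial (1.27 to 24), 38.6 for 45S rDNA (19.6 to 49.9) and 1.05 for the other members (0.928 to 2.53). The selection held 75% of the 32 plastid THSs, 45.2% of the 31 mitochondrial THSs and 82.4% of the 17 rDNA THSs, but 0.686% of the 65271 THSs with no match, and the next 500 held 0 sites with a match. The matches were often partial. They covered a median of 42.3% of the plastid members and 47.4% of the mitochondrial members, at a median identity of 98.4% and 100%, and 11 plastid and 6 mitochondrial members were matched over at least 50% of their length. The rDNA members were matched over a median of 100%, but those at chr2:982-10336 lie in the 45S rDNA and match their own position. THS_19475 and THS_52315, which lie elsewhere, were matched over 86.3% and 75.4%. A further 14 of the 448 members with no organelle or rDNA match had at least 50% of their length copied elsewhere in the nuclear genome.

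The 10 most accessible members were 4 plastid and 6 rDNA sites. THS_32766 (chr3:7103596-7104712) matched plastid DNA over 97% of its length and reached 232 scaled cutcounts per bp. THS_03086 (chr1:4598949-4599226, nearest gene start NUB) reached 172, THS_41498 (chr4:5267849-5268398) 69.9 and THS_21029 (chr2:9711395-9711634) 51.1. The 6 rDNA members THS_17808, THS_17810, THS_17809, THS_17811, THS_17804 and THS_17806 lay at the top of chromosome 2 and reached 49.9, 47.9, 47.4, 46.6, 46.4 and 43.6. They belong to a run of 12 members on chr2:982-10336 that covers the annotated 18S and 25S rRNA genes AT2G01010 and AT2G01020. The remaining 2 rDNA members were THS_19475 on chromosome 2 and THS_52315 on chromosome 5.

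Some members stood next to other members. Within 5000 bp, 20.2% of the 500 had another member, in 41 runs, of which 5 held at least 3 members. Beside the rDNA run, 6 members lay at chr3:22514586-22519415 over pseudogenes beside the BEACH domain gene AT3G60920, and all 6 were copied over at least 95.7% of their length elsewhere in the nucleus. Another run of 4 lay at chr1:12050508-12059789 around GTL1, a trihelix transcription factor of water use and trichome growth. A run of 4 at chr3:7906461-7913111 lay between AOX1A, the alternative oxidase of mitochondria, and TIC, a nuclear regulator of the circadian clock. KCS9, an enzyme of very-long-chain fatty acid synthesis, had 3 members at chr2:7050359-7053720. By chromosome, 128, 102, 109, 63 and 98 members lay on chromosomes 1 to 5, which is 0.719%, 0.986%, 0.883%, 0.653% and 0.644% of the THSs there.

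Most members lay close to a gene. In 204 of 500 (40.8%) the midpoint lay in the 400 bp upstream of a gene start, in 34.8% inside a gene and in 24.4% elsewhere. Over all THSs the shares were 25.5%, 40.6% and 33.9%, and for the next 500 they were 47.2%, 27.8% and 25%, so a high share upstream is common to highly accessible sites and not particular to the members. The midpoint was a median of 339.5 bp away from the nearest protein-coding gene start for the members, 269.5 bp for the 448 without a match, 229.5 bp for the next 500 and 778 bp over all THSs. Coding exons held 7.6% of the members against 15.5% of all THSs, and introns held 2% against 6.16%. A midpoint between 2 divergent gene starts was found for 10.4% of the members, 11% of the next 500 and 4.62% of all THSs. In all, 468 of 27444 protein-coding genes (1.71%) were the nearest to a member.

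Short words were counted in the central 150 bp on both strands. CACGTG, the G-box that bHLH and bZIP factors recognise, was present in 24.6% of the members, 18.4% of the next 500 and 5.86% of all THSs. Further down the share was 17.1% in the sites up to rank 2000, 13.1% up to rank 5000, 10.7% up to rank 10000, 7.71% up to rank 20000, 5.33% up to rank 40000 and 2.67% in the rest, smaller at each step. TGGGCC, a site II word read by TCP factors, was in 22.8% of the members, 25.6% of the next 500 and 9.55% of all THSs, and was thus no more common in the members than just below them. TATAAA, the TATA box, was in 14.8%, 18.8% and 23.2%, and a run of 8 A in 5.6%, 8.4% and 11.3%, both rarer in the members in this window. Over whole THSs, which are longer in the members, the order against all THSs turned for both. TATAAA was then in 49.6% of the members, 50.8% of the next 500 and 36.6% of all THSs, and the run of 8 A in 29.6%, 27% and 19.9%. The median GC content was 39.1%, 37.9% and 34.7%.

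For the G-box the order was alike within each place. Among sites centred upstream of a gene start, the G-box was in 26.5% of the members, 19.5% of the next 500 and 7.37% of all THSs. Inside genes the shares were 21.3%, 15.1% and 5.05%, and in intergenic sites 26.2%, 20% and 5.69%. For TGGGCC the members had 28.9%, the next 500 30.1% and all THSs 16.6% upstream, 14.9%, 22.3% and 6.43% inside genes, and 23.8%, 20.8% and 8.02% in intergenic sites. TGACGT, a core bZIP word, was in 9.6% of the members, 13% of the next 500 and 6.19% of all THSs. ACGCGT was in 2.6%, 3.8% and 1.52%. GAGAGAGA was in 5.6%, 3.2% and 3.65%, and the L1-box words TAAATGCA or TAAATGTA of epidermal genes in 2.6%, 0.6% and 2.33%. For the rest the shares in the members, the next 500 and all THSs were 13.2%, 13% and 13.7% for the GATA word AGATAA, 18.4%, 20.4% and 21.1% for the W-box words TTGACC or TTGACT, 2.8%, 3.6% and 2.09% for the evening element AAATATCT, 2%, 1.8% and 1.59% for GCCGCC and 0.6%, 0% and 0.852% for AAACCCTAA. A word is a string match and not a bound site, and members are longer than other THSs, which the fixed window takes out of the count.

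**Figure D2:**
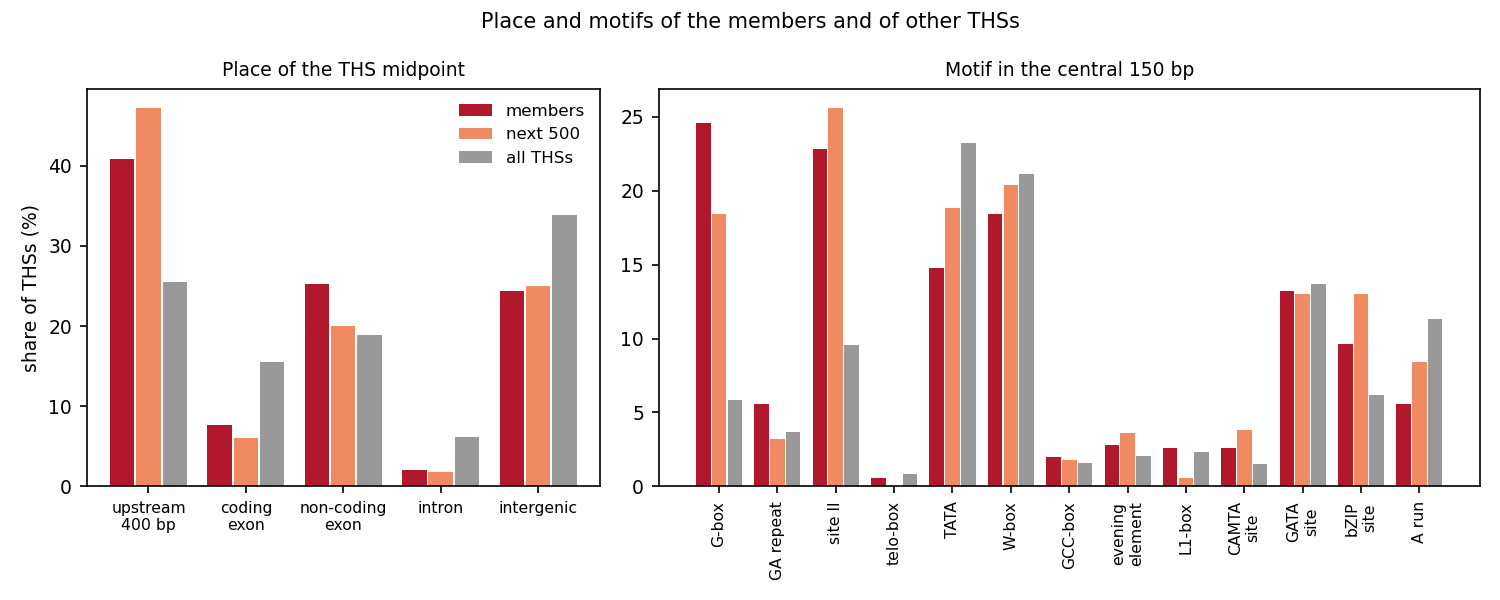
Share of sites (percent) by place of the midpoint and by word in the central 150 bp, for the members, the next 500 and all THSs. CACGTG was in 24.6% of the members and 5.86% of all THSs, and 40.8% against 25.5% were centred in the 400 bp upstream of a gene start.

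The genes nearest to the members were grouped by words in their RefSeq product names, which gather more than 1 kind of protein. Words used for transcription factors (zinc finger, homeobox, MYB, NAC and the like) matched 47 members (9.4% of the 500), against 6.6% of the next 500 and 7.4% of all THSs. They hold MYC2, HB5, MYB77 and TCP9, but also RDUF1, a RING finger protein, and the splicing factor RSZ21. Genes with chlorophyll, photosystem or ribulose in the name were nearest to 8 members (1.6%), against 1.4% and 0.308%: RBCS1A, RBCS2B and RBCS3B of the small Rubisco subunit, PSAD-1, PSAF and PSAK of photosystem I, LHCA4 of its antenna and ELIP1, an early light-induced protein. Histone genes were nearest to 5 members (1%), against 1.2% and 0.404%, among them HTA7, HTA13 and HTB4. Genes with ribosomal in their product name were nearest to 5 (1%), against 1% and 1.06%, and heat shock genes to 4 (0.8%), against 1% and 1.02%. Kinase genes were nearest to 23 (4.6%), against 4% and 5.62%, and included BRI1, the brassinosteroid receptor, and FER, a receptor kinase of cell wall growth. Except for the transcription factor words, the shares of the members and of the next 500 differed by less than 1 percentage point in these groups.

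Few genes of any kind were nearest to a member (1.71% of protein-coding genes), and the counts for the listed genes are small. Of 22 stomatal lineage genes 1 (4.55%), EPF2, the secreted peptide that limits entry into the lineage, was nearest to a member, THS_08204 at rank 186. None of 7 BPC genes, which encode GA-repeat binding factors, had one. Of 10 clock genes 3 did (30%): GI at rank 70, PRR5 at rank 230 and CCA1 at rank 448. Of 9 light signalling genes PIL6 did (rank 307), and of 6 guard cell genes PHOT1, the blue-light receptor (rank 252). The promoter genes of the INTACT constructs had no member within 3000 bp upstream or in the gene, and their most accessible THSs stood at rank 599 for ACT2, 1687 for ATML1, 2168 for SPCH, 7908 for GC1, 8697 for FAMA and 11476 for MUTE.

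Libraries differed in how much of their signal the members took, and 3 libraries stood apart. The members held between 8.04% and 23.9% of all cutcounts in THSs. Replicates 1 to 3 of Proto had 12.1%, 13.2% and 15.9%, those of MMC had 14.4%, 18.1% and 8.04%, and the 4 M libraries 23.9%, 15.6%, 17.7% and 9.13%. Those of GMC had 20.5%, 20.3% and 19.7%, and those of GC 23.5%, 22% and 18%. M replicate 1 had the largest share, with 12.7% on plastid members, and the smallest of all 16 on the members with no match, 2.48%. MMC replicate 3 and M replicate 4 had the smallest shares, with 0.963% and 1.5% on plastid members against 4.49% to 12.7% in the other 14, and the largest on members with no match, 5.54% and 5.68%. Depth was 3412226 to 13596509 cutcounts a library. Shares, counts of calls and levels by class are given with and without them.

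The 45S rDNA and mitochondrial members took a larger share of the cuts in GMC and GC libraries than in MMC and M libraries, and the members with no match a smaller one. The share on all members averaged 20.7% ± 1.88 in GMC and GC libraries (SD, n = 6) and 15.3% ± 5.48 in MMC and M libraries (n = 7), a difference of 5.38 percentage points (two-sided exact permutation test over the libraries, p = 0.045, 0.056 after Benjamini-Hochberg adjustment over the 5 shares tested). Without the 10 largest members the difference was 1.1 percentage points (exact permutation test, p = 0.12). The 45S rDNA share was 6.95% ± 0.76 in GMC and GC and 3.92% ± 2.12 in MMC and M (n = 6 and 7, exact permutation test, adjusted p = 0.024). The mitochondrial share was 2.37% ± 0.433 in GMC and GC and 1.26% ± 0.701 in MMC and M (adjusted p = 0.02, exact test). The plastid share was 8.35% ± 1.37 in GMC and GC and 5.59% ± 4.01 in MMC and M, a difference that did not pass (adjusted p = 0.14, exact test). The members with no match took 3% ± 0.462 in GMC and GC and 4.51% ± 1.09 in MMC and M, a difference of -1.51 percentage points (adjusted p = 0.024, exact test). The smallest p these 1716 regroupings can give is 0.0012, and the p-values measure only the spread between these libraries.

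The direction of each share held without the libraries that stood apart. Without M replicate 1 the differences were 6.83 for all members, 3.94 for plastid, 1.19 for mitochondrial, 3.54 for 45S rDNA and -1.85 percentage points for the members with no match, with adjusted p of 0.0054 for all but the plastid share at 0.011 (exact permutation test, smallest possible p 0.0022). Without M replicates 1 and 4 and MMC replicate 3 they were 4.2, 2.35, 0.772, 2.54 and -1.47, with adjusted p of 0.024 for all but the plastid share at 0.048 (exact permutation test, smallest possible p 0.0095). These libraries were set apart after the shares tested here were seen. Leaving out the 3 lowered the SD of the plastid share in MMC and M from 4.01 to 1.54. The p-values without these libraries, here and below, are therefore no independent support. For the share on all members, leaving out other single libraries mostly raised the unadjusted p of 0.045 (exact permutation test). It was 0.069 without MMC replicate 1, 0.074 without MMC replicate 3 or M replicate 4 and 0.067 without M replicate 2. Without GMC replicates 1, 2 and 3 in turn it was 0.069, 0.067 and 0.064, and without GC replicates 1 and 2 it was 0.087 and 0.081. Without MMC replicate 2, M replicate 3 or GC replicate 3 it was 0.043, 0.048 and 0.045. What the preparations contained in organelle DNA, and its part in these shares, was not tested.

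**Figure D3:**
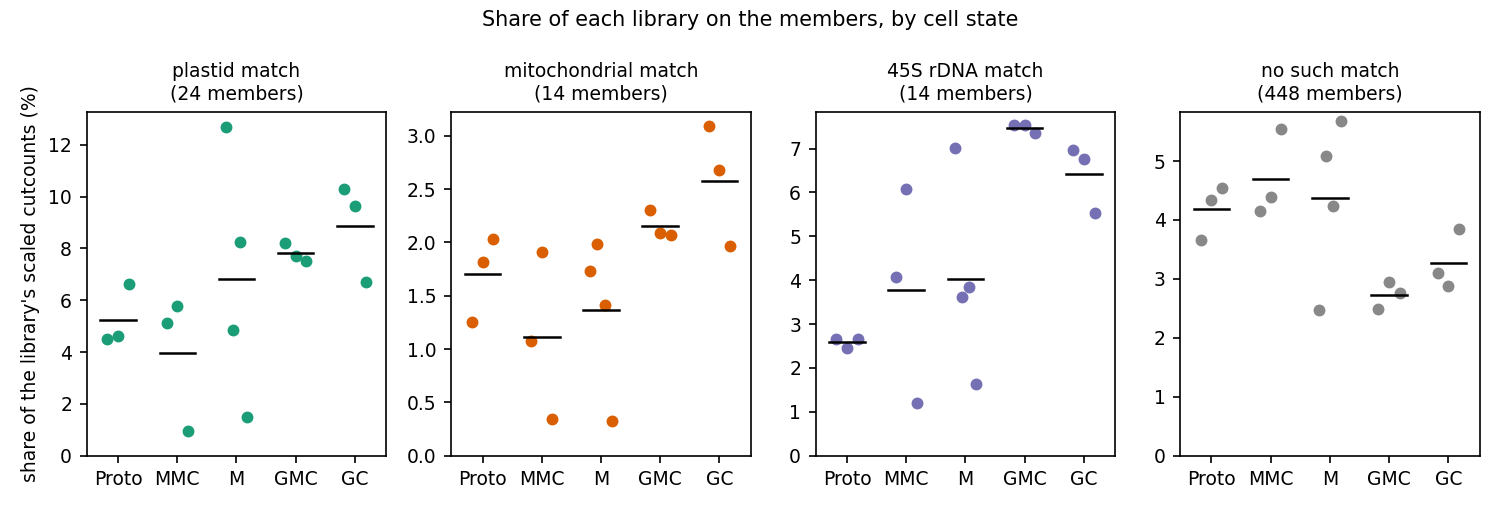
Percent of each library's cutcounts in THSs that fell on the members, split by class, for the 16 libraries in state order. GMC and GC libraries lie between 18% and 23.5%, and MMC and M libraries between 8.04% in MMC replicate 3 and 23.9% in M replicate 1.

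Levels per bp are given by class for the states in the order Proto, MMC, M, GMC and GC. The median plastid member had 8.58, 7.13, 13.1, 10.6 and 16.6 scaled cutcounts per bp, and the median mitochondrial member 2.11, 1.5, 2.01, 2.37 and 3.55. The median 45S rDNA member had 19.8, 34.4, 36.8, 53.8 and 53.1, and the median member with no match 1.09, 1.31, 1.26, 0.669 and 0.87. All 24 plastid and all 14 mitochondrial members were lowest in MMC, and 23 and 14 of them were highest in GC. All 14 rDNA members were lowest in Proto, and 13 were highest in GMC. Of the 448 others, 434 were lowest in GMC and 367 were highest in MMC.

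Some of these orders rested on single libraries. Without MMC replicate 3, 6 of the 24 plastid members were lowest in MMC and 15 in Proto, and 2 of the 14 mitochondrial members were lowest in MMC and 11 in M. Without M replicate 1, 410 of the 448 members with no match were highest in M and 26 in MMC. Without M replicates 1 and 4 and MMC replicate 3, 22 plastid and 14 mitochondrial members were still highest in GC, 13 rDNA members highest in GMC and 434 members with no match lowest in GMC. The median levels in MMC and M were then 9.82 and 12 for plastid, 1.9 and 2.35 for mitochondrial, 45.8 and 34.6 for 45S rDNA and 1.13 and 1.34 scaled cutcounts per bp for the other members. In GMC and GC against MMC and M, the median log2 fold change was then 0.26 for plastid, 0.46 for mitochondrial, 0.54 for 45S rDNA and -0.71 for the other members, against 0.75, 0.93, 0.93 and -0.70 with all libraries.

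A model over all 65351 THSs gave the test of single sites. In limma on log2(scaled cutcount + 1), the test of the 5 state means called 0 of the 500 members at an adjusted p of 0.05, against 0.0275% of all THSs (18). At an unadjusted p under 0.05 limma called 343 members (68.6%), against 65.2% of the next 500 and 24.9% of all THSs, and edgeR at an adjusted p under 0.05 called 17 (3.4%), against 2.4% of the next 500 and 2% of all THSs. Without M replicate 1 the limma count was 439, and without all 3 libraries that stood apart it was 463, so the count of 0 rested mainly on M replicate 1. It was 86 without MMC replicate 2, 26 without MMC replicate 3 and 1 without M replicate 4, and 0 without any other single library. For counts of calls with libraries left out, here and below, no share over all THSs or the next 500 is given. Such counts cannot be read as particular to the members. Of the steps between neighbouring states, M to GMC had calls and the other 3 had 0 among the members (limma, with 11, 1 and 12 members at an unadjusted p under 0.05 for MMC against Proto, M against MMC and GC against GMC, which is 2.2%, 0.2% and 2.4% of the members, against 7.37%, 2.58% and 1.89% of all THSs).

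In GMC and GC against MMC and M, 398 members (79.6%) were lower and 22 (4.4%) higher by limma at an adjusted p of 0.05. Over all THSs 16.6% were lower and 16.7% higher. The median log2 fold change was -0.69 over the members and 0.02 over all THSs. All 398 lower members came from the 448 without a match (88.8%), and of the 22 higher members 10 were 45S rDNA, 9 mitochondrial, 1 plastid (THS_36361) and 2 without a match (THS_08715 and THS_08721). The next 500 had nearly the same share, with 81.2% lower and 1.6% higher, so the decrease was not particular to the members. Without M replicate 1 the counts were 437 lower and 23 higher, without MMC replicate 3 they were 213 and 6, without M replicate 4 they were 309 and 9, and without all 3 they were 433 and 28. Single libraries of GMC and GC moved the counts as well, to 210 lower and 6 higher without GMC replicate 1, 211 and 6 without GC replicate 2 and 265 and 5 without GC replicate 1. The higher count was 7 and 10 without GMC replicates 2 and 3, and 37 without MMC replicate 2. The median log2 fold change stayed between -0.84 and -0.59 in all of these. The counts with libraries left out again have no share over all THSs or the next 500 beside them.

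The decrease grew with accessibility over the whole table. Among sites with no match, the median log2 fold change in GMC and GC against MMC and M was -0.70 for the members, -0.66 for the next 500, -0.62 up to rank 2000, -0.56 up to rank 5000, -0.46 up to rank 10000, -0.27 up to rank 20000, 0.11 up to rank 40000 and 0.27 in the rest, each bin starting where the one before ended. The deposited values were scaled by 1 factor a library, which leaves such a dependence on level in place. After a loess normalisation that removes it from each library, 40 members (8%) were lower and 13 (2.6%) higher in limma, against 7.25% lower and 8.76% higher of all THSs and 12.2% lower of the next 500. The median was then -0.07 over the members. Whether the dependence on level reflects the cells or the quality of the libraries was not tested.

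**Figure D4:**
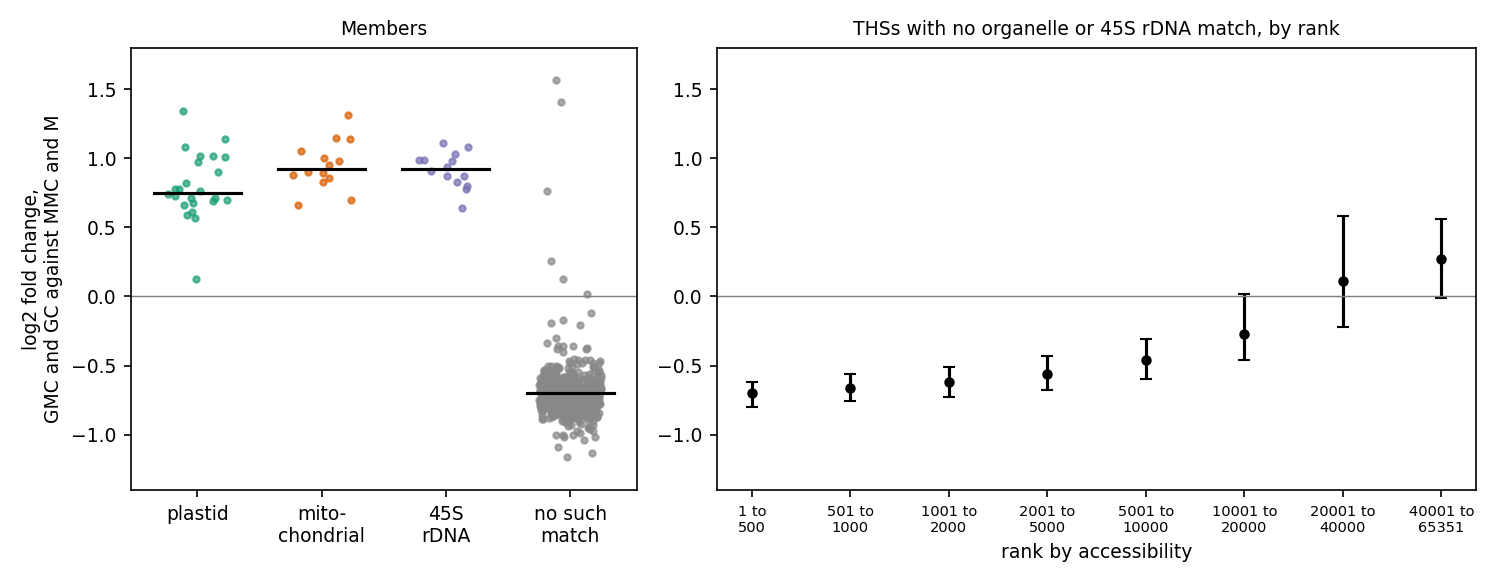
Log2 fold change in GMC and GC against MMC and M (limma). Points on the left are single members by class with a line at the median, and on the right the median and quartiles are given for THSs with no match, by rank. The members with no match have a median of -0.70, and the plastid, mitochondrial and 45S rDNA members medians of 0.75, 0.93 and 0.93.

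The groups of libraries overlapped at nearly every member. In 0 members did every GMC and GC library lie below every MMC and M library (0.978% of all THSs), and in 1, THS_08721, all lay above (2.04%), by less than the 3 digits given below. Without M replicate 1, 227 members (45.4%) were lower in this strict sense, against 7.24% of all THSs and 42% of the next 500. In GMC against M alone, limma called 156 members lower (31.2%) and 1, THS_08715, higher (0.2%), against 5.87% and 4.79% of all THSs and 34% and 0.2% of the next 500. With all libraries 404 members (80.8%) had an unadjusted p under 0.05 in limma, against 84.2% of the next 500 and 34.9% of all THSs. edgeR called 336 lower (67.2%) and 2 higher (0.4%), against 10.6% and 7.65% of all THSs. Without M replicate 1 the limma counts were 433 and 8, without MMC replicate 3 they were 307 and 4, and without M replicate 2, 3 or 4 or any 1 of the GMC replicates both were 0. The lower count was between 74 and 109 without any 1 of the GC or Proto libraries or MMC replicate 1, and 203 without MMC replicate 2. These counts of calls also lack the share over all THSs and the next 500.

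As deposited, the position of a member made little difference to the size of the decrease. The median log2 fold change was -0.74 for the 192 members with no match centred upstream of a gene start, of which 180 (93.8%) were called lower, -0.67 for the 146 in genes (119 lower, 81.5%) and -0.70 for the 110 in intergenic DNA (99 lower, 90%). After loess the counts of calls in limma differed by place. Upstream 27 of 192 were lower and 0 higher, in genes 10 and 5 of 146, and in intergenic DNA 3 and 2 of 110. Over all places, 8.93% of the members with no match were lower after loess. The share was 7.25% for all THSs and 12.2% for the sites ranked just below the members. These 2 shares were not split by place, so the difference between places cannot be read as particular to the members. Members with a G-box had a median of -0.69 (105 of 123 lower) and those with neither a G-box nor a match -0.71 (293 of 325).

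THS_33251, upstream of the clock regulator TIC, had the largest decrease in GMC and GC. It had 0.422, 0.68 and 0.721 scaled cutcounts per bp in GMC libraries and 0.868, 0.935 and 0.872 in GC libraries, against 1.82, 1.08 and 2.08 in MMC libraries and 0.814, 2.1, 1.79 and 2.5 in M libraries, and Proto libraries had 1.01, 1.16 and 1.17. Except for M replicate 1, every MMC and M library was above every GMC and GC library. The log2 fold change was -1.16 ± 0.23 (SE, limma adjusted p = 0.0046), and -0.54 after loess (adjusted p = 0.012). The next largest decreases by this rule were at CINV1 (-1.13 ± 0.25, limma adjusted p = 0.0057), a cytosolic invertase, cICDH (-1.09 ± 0.22, limma adjusted p = 0.0048), the cytosolic isocitrate dehydrogenase, AT4G11570 (-1.04), CR88 (-1.02), a chloroplast chaperone of the HSP90 family, AT2G21520 (-1.02), TSO2, a ribonucleotide reductase subunit that supplies DNA synthesis, and AT2G19940. The choice of these sites required a pass in limma as deposited. They also passed in limma after loess and without the 3 libraries that stood apart, which are refits of the same data.

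Members at EPF2 and the listed clock, light and guard cell genes were lower in GMC and GC as deposited. The same held for 88.8% of all members with no match. THS_08204 (chr1:12473357-12473971), in the last exon of EPF2 outside its coding part, had 0.582, 0.752 and 0.586 scaled cutcounts per bp in GMC libraries and 0.972, 0.854 and 0.92 in GC libraries, against 1.34, 1.21 and 1.75 in MMC libraries and 0.635, 1.57, 1.5 and 2.04 in M libraries. M replicate 1 lay among the GMC and GC libraries and all other MMC and M libraries above them, with a log2 fold change of -0.84 ± 0.22 (limma adjusted p = 0.0093). THS_05449 of GI, a clock and flowering protein, had 0.838, 1.08 and 0.992 in GMC and 1.15, 1.02 and 1.3 in GC libraries, against 1.36, 1.79 and 2.11 in MMC and 0.809, 2.17, 1.66 and 2.1 in M libraries (-0.65 ± 0.23, limma adjusted p = 0.034). After loess neither passed, with log2 fold changes of -0.18 and 0.09 (limma adjusted p = 0.14 and 0.38). Members at CCA1, PRR5, PIL6 and PHOT1 had log2 fold changes of -0.59, -0.64, -0.72 and -0.62 (limma adjusted p = 0.029, 0.025, 0.019 and 0.03), and 0.03, 0.01, -0.11 and 0.01 after loess (adjusted p = 0.86, 0.92, 0.4 and 0.96).

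The most accessible single-copy members, at GolS2 and STOP1, were lower in GMC and GC as deposited, as were 88.8% of all members with no match. THS_11245 of GolS2, a galactinol synthase of drought and cold stress, had 1.12, 1.44 and 1.25 scaled cutcounts per bp in GMC libraries and 1.73, 1.43 and 1.87 in GC libraries, against 2.3, 2.39 and 2.72 in MMC libraries and 1.12, 2.84, 2.22 and 3.2 in M libraries, and Proto libraries had 1.8, 2.29 and 2.52. Again only M replicate 1 among the MMC and M libraries was at the GMC and GC level (-0.68 ± 0.23, limma adjusted p = 0.026). THS_08245 of STOP1, a zinc finger factor of acid and aluminium tolerance, had 0.841, 1.33 and 1.12 in GMC and 1.51, 1.32 and 1.98 in GC libraries, against 2.02, 2.51 and 2.94 in MMC and 1.03, 3.02, 2.19 and 3.39 in M libraries (-0.83 ± 0.24, limma adjusted p = 0.014). Here too M replicate 1 was the only MMC or M library within the range of the GMC and GC libraries. After loess neither passed, with 0.08 at GolS2, where the direction turned, and -0.09 at STOP1 (limma adjusted p = 0.36 and 0.39).

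All 8 photosynthesis members were lower in GMC and GC as deposited. By limma, 88.8% of all members with no match were called lower, and 16.6% of all THSs. The decreases at the photosynthesis and auxin genes can therefore not be read as particular to these genes. At RBCS1A, THS_13655 had 0.761, 0.905 and 0.774 scaled cutcounts per bp in GMC libraries and 1.23, 1.15 and 1.45 in GC libraries, against 1.59, 1.81 and 1.77 in MMC libraries and 0.828, 1.99, 1.59 and 2.47 in M libraries. The log2 fold change was -0.71 ± 0.22 (limma adjusted p = 0.02). The other 7 ranged between -0.84 at PSAD-1 and -0.58 at RBCS3B and PSAK. After loess none of the 8 passed an adjusted p of 0.05 in limma, the smallest being 0.073 at PSAD-1. Genes with auxin in the product name were nearest to 7 members, of which 5 were lower in limma, among them ARF6 (-0.69) and ARF8 (-0.87), auxin response factors, and the auxin receptors AFB2 (-0.77) and AFB3 (-0.68). The other 2 were AT2G21210 (-0.36, limma adjusted p = 0.18) and GH3.1, whose member has a plastid match (0.66, limma adjusted p = 0.25). After loess ARF6, ARF8, AFB2 and AFB3 had -0.04, -0.23, -0.13 and -0.12 and did not pass (limma adjusted p = 0.78, 0.057, 0.25 and 0.44). The member at RGA1, a DELLA repressor of gibberellin responses, had -0.81, and that at MYC2, a jasmonate factor, -0.84, past the threshold in limma, and -0.24 and -0.21 after loess (adjusted p = 0.067 and 0.085). ERF4, an ethylene response factor, had -0.48 (limma adjusted p = 0.073) and BRI1 -0.55 (limma adjusted p = 0.061), which did not pass, though BRI1 did without the 3 libraries that stood apart (-0.56, limma adjusted p = 0.0065).

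**Figure D5:**
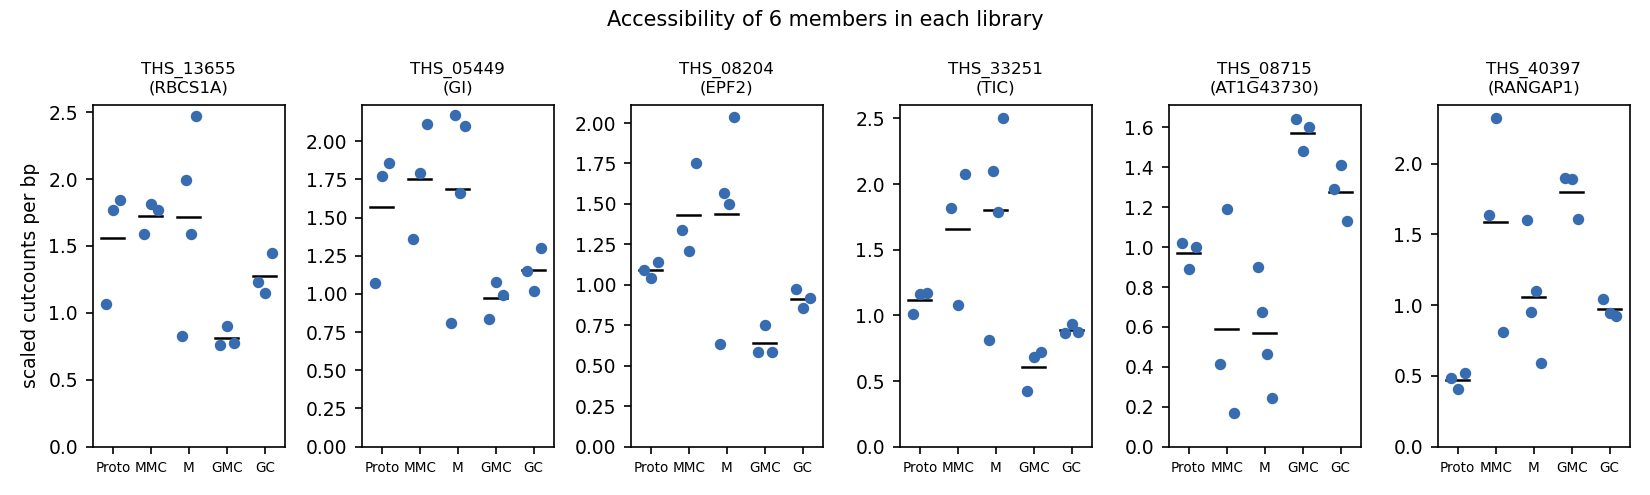
Scaled cutcounts per bp in each of the 16 libraries for 6 members, by state in the order Proto, MMC, M, GMC and GC, with state means. At TIC the GMC libraries lie between 0.422 and 0.721 and the M libraries between 0.814 and 2.5, with M replicate 1 lowest.

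A few members went the other way. THS_08715 (chr1:16510933-16511218) lay 1291 bp upstream of a gene for a reverse-transcriptase protein, AT1G43730, and was copied over 100% of its length elsewhere in the nucleus. It had 1.64, 1.48 and 1.6 scaled cutcounts per bp in GMC libraries and 1.29, 1.41 and 1.13 in GC libraries, against 0.415, 1.19 and 0.169 in MMC libraries and 0.9, 0.676, 0.464 and 0.245 in M libraries (1.57 ± 0.35, limma adjusted p = 0.0081, and 2.04 after loess, adjusted p = 0.027). MMC replicate 3 and M replicate 4 were again the lowest, as for the organelle members. Its neighbour THS_08721, also copied over 100%, had 1.52, 1.38 and 1.33 in GMC and 1.48, 1.53 and 1.23 in GC libraries, against 0.504, 1.23 and 0.198 in MMC and 1.01, 0.691, 0.463 and 0.305 in M libraries (1.41 ± 0.32, limma adjusted p = 0.0083).

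At THS_32766, THS_17808 and THS_13112, from the plastid, rDNA and mitochondrial classes, MMC replicate 3 and M replicate 4 were the lowest of all 16 libraries. The place of M replicate 1 differed between these sites. THS_32766, the plastid site, had 296, 274 and 272 scaled cutcounts per bp in GMC libraries and 359, 343 and 239 in GC libraries, against 169, 233 and 39.4 in MMC libraries and 407, 212, 279 and 60.8 in M libraries. The values of MMC replicate 3 and M replicate 4 were far below all others, and that of M replicate 1 was the highest of all 16, and the fold change did not pass (0.97 ± 0.52 on the log2 scale, limma adjusted p = 0.14). Without the 3 libraries that stood apart it was 0.42 (limma adjusted p = 0.044). THS_17808, an rDNA site, had 78.8, 77.3 and 77.4 in GMC and 78, 68.1 and 57.7 in GC libraries, against 38.2, 63.4 and 12.1 in MMC and 66, 38.5, 38.4 and 18.4 in M libraries, with 26.9, 28.2 and 30.9 in Proto libraries (1.11 ± 0.36, limma adjusted p = 0.023). THS_13112, the mitochondrial site, had 30.3, 27.9 and 27.6 in GMC and 42.6, 36.3 and 27 in GC libraries, against 14.1, 27.9 and 5.17 in MMC and 21.5, 31.4, 19.6 and 4.97 in M libraries (1.14 ± 0.46, limma adjusted p = 0.054). Without the 3 libraries the log2 fold changes at the rDNA and the mitochondrial site were 0.74 and 0.51 (limma adjusted p = 0.00023 and 0.03), and at THS_08715 and THS_08721 1.17 and 1.07 (2.8e-05 and 2.5e-05). The 3 libraries were left out after their values were seen. The other members among the 8 largest increases were the plastid site THS_36361 (1.34), the mitochondrial sites THS_51426 (1.31), THS_19930 (1.15) and THS_64222 (1.05), and the rDNA site THS_17811 (1.08).

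Spread between libraries of a state was larger in the members than elsewhere on the scale as deposited. The residual SD on the log2 scale had a median of 0.43 for the members, 0.40 for the next 500 and 0.36 for all THSs. It was 1.01 for plastid, 0.74 for mitochondrial, 0.66 for 45S rDNA and 0.43 for the other members. Without the 3 libraries that stood apart it was 0.53, 0.36, 0.21 and 0.24 for these classes. Without M replicate 1 the median over the members was 0.29, and after loess it was 0.16, below the 0.32 of all THSs. The 5 largest values were all at plastid members, led by THS_11211 (1.19), with THS_07811 and THS_18772 (1.11 each), THS_20209 (1.10) and THS_55397 (1.07). The smallest was 0.18 at THS_29478 near PPR2, and those of THS_39806 (0.25), THS_39804 and THS_39809 (0.31 each) belong to the multicopy run beside AT3G60920, with 0.32 at THS_29708.

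State means differed least at THS_15781 and most at THS_36361, a plastid site. The range of the 5 state means on the log2 scale was 0.49 at THS_15781 and 2.16 at THS_36361, with a median of 0.97 over the members with no match, 1.65 for plastid, 1.44 for mitochondrial and 1.51 for 45S rDNA members. Without the 3 libraries that stood apart these medians were 1.03, 0.94, 0.93 and 1.51. With all libraries the next 500 had 0.90 and all THSs 0.64. Among members with no match the widest was THS_40397 (chr3:23325088-23325462), in a coding exon of RANGAP1, the RAN GTPase activating protein whose WPP domain is used in the INTACT tag. The 3 Proto libraries had 0.484, 0.405 and 0.521 scaled cutcounts per bp, the MMC libraries 1.64, 2.32 and 0.809 and the M libraries 1.6, 0.948, 1.1 and 0.588. The GMC libraries had 1.9, 1.89 and 1.61 and the GC libraries 1.04, 0.945 and 0.924. The Proto libraries were below all others, and the test of the 5 state means gave a limma adjusted p of 0.056. The part that copies of the transgene had in these counts was not tested.

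Most members were among the most accessible sites of each state. The state's own 500 most accessible THSs held 412 members for Proto, 447 each for MMC and M, 356 for GMC and 415 for GC. In all 5 states at once 268 members (53.6%) were in the state's own 500, and 106 (21.2%) were in the own 500 of all 16 libraries. Single libraries shared between 229 (GMC replicate 1) and 424 (MMC replicate 2) of their own 500 with the members. These counts follow in part from the rule, which averages the same libraries.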

How the data were processed

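INTACT nuclei (30000 a library) of the 5 lines were profiled by ATAC-seq. Per the labels and the methods of the study, reads were handled with bcl2fastq, Bowtie2 and bedtools, aligned to TAIR10, centromeric reads were removed, ends of fragments under 2000 bp were taken as cut positions, MACS2 peaks were merged with published open regions, and cuts per THS were divided by 1 DESeq2 size factor a library. The deposited signal is therefore a scaled cutcount, which the authors did not correct for a dependence on level. Each library's values were whole multiples of 1 step (100% within a tolerance of 0.1). One further value column matches no sample and was not used (1 column).

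Sites were ranked on the mean of 16 libraries per bp, classed with BLAST 2.17.0 (word size 28) against TAIR10.1 of RefSeq, on which 0 THSs ran past a chromosome end, and placed by the nearest gene start. limma 3.58.1 in R 4.3.3 was fitted on log2(scaled cutcount + 1) over all THSs and 16 libraries, with 5 state means, a variance trend, robust moderation and Benjamini-Hochberg adjustment at 0.05. It was tested on simulated data. edgeR 4.0.16 was run on the recovered cutcounts as an alternative. Shares of cutcounts were compared with exact permutation tests over libraries. With 3 or 4 libraries a state, labels do not say whether libraries came from separate plants, so p-values measure the spread between libraries only. Depth was 3412226 to 13596509 cutcounts a library.

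The members, gene lists and words were chosen with earlier results of these data known. Sites named with values are the 10 highest, 3 on each side of the limit, the 8 largest called changes in each direction, the 5 largest and smallest SDs and ranges, and members nearest to listed stomatal, BPC, clock, light and guard cell genes. GolS2, STOP1, the photosynthesis, histone, kinase, auxin and other hormone genes were picked after their values were seen. Alternatives are given at the end.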

Additional observations from a re-analysis of the deposited data

Results flagged for a closer look

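Shares of cutcounts and levels per bp at the named members were searched for a library far from the rest in 3 sets of libraries: M, GMC with GC, and MMC with M. In 3 of 105 such groups the outermost library lay beyond the limit of Dixon's test, where chance gives about 1 in 20. THS_17809, a 45S rDNA member, had 52.3 scaled cutcounts per bp in GC replicate 3, and the nearest other GMC or GC library had 67. THS_18577, at CR88, had 0.938 in GC replicate 3, with the nearest GMC or GC library at 0.603. THS_27816, at CCA1, had 0.709 in M replicate 1, with the nearest M library at 1.23. The cause was not tested.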

How the results depend on the processing

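Without a replicate at a time, members called over 5 state means were 0 to 439, higher in GMC and GC 5 to 37, lower 210 to 437, higher in GMC against M 0 to 8 and lower 0 to 433. The median log2 fold change was then -0.84 to -0.59, the share difference 4.18 to 6.83 and the SD 0.29 to 0.45. The replicate numbers were not shown to pair the libraries (30 same-numbered pairs, mean correlation 0.0607, 9 over 0.1); with the replicate block 202 members were called over 5 state means and, in GMC against M, 0 higher and 12 lower. With loess the counts were 1 over 5 state means, 13 higher, 40 lower and, in GMC against M, 3 and 28, with a median of -0.07 and an SD of 0.16. With edgeR they were 17, 12, 2 and 336 in GMC against M. Without the 3 libraries together they were 463 over 5 means and 17 and 431 in GMC against M. Over 5 means, a pseudocount of 5 gave 1 and a filter 6. In GMC against M, higher counts were 2 with the pseudocount of 5, filter, state-mean rule, median rule and the fit on compared states only (12 higher in GMC and GC), and 0 with TMM and with neither trend nor robust moderation; lower counts were 0 with neither and 41 in compared states. The share difference was 4.29 with 1000 members, 1.1 without the 10 largest and -1.51 for members with no match. The upstream share was 35.4% with gene bodies first, 62.6% for any overlap and 57.2% for 1000 bp. Over whole THSs words were in 43% (CACGTG), 19.2% (GAGAGAGA), 44.8% (TGGGCC), 3.8% (AAACCCTAA), 49.6% (TATAAA), 46.4% (W-box), 8.2% (GCCGCC), 7.6% (AAATATCT), 7% (L1-box), 7.4% (ACGCGT), 35.8% (AGATAA), 26.6% (TGACGT) and 29.6% (A run). With at least 50% coverage 31 of 52 matches remained. The cause of these differences was not tested. edgeR, leaving out 3 libraries, members with no match and the 50% limit were chosen after seeing the data. The median rule shared 455 members, the state-mean rule 489 and the rule without length 234. Of the values recomputed, 138 stayed near the reported value and on its side of the threshold, 95 moved, 11 lost the threshold and 1 turned. Depth was 3412226 to 13596509 cutcounts, and counting error was not separated from other spread.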

Other observations

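Multicopy members with no organelle or 45S rDNA match differed among themselves. Of the 14 with at least 50% of their length copied in the nucleus, the 6 beside AT3G60920 had log2 fold changes between -0.36 and 0.02 in GMC and GC against MMC and M and did not pass the test in limma, as did THS_28150 with its telomere repeats (0.26) and THS_29478 (-0.12). THS_18353, THS_18358, THS_20452 and THS_12373 were lower (-0.73, -0.68, -0.67 and -0.71 in limma), and the pair near AT1G43730 was higher. Without M replicates 1 and 4 and MMC replicate 3, of the 6 beside AT3G60920, THS_39806 (-0.40, limma adjusted p = 0.031) and THS_39808 (-0.62, limma adjusted p = 0.0017) passed.

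THS_28150 had 3.37, 3.53 and 2.99 scaled cutcounts per bp in GMC and 2.85, 3.05 and 2.34 in GC libraries, against 2.78, 3.98 and 1.64 in MMC and 2.95, 2.87, 2.3 and 1.61 in M libraries, and 1.49, 1.31 and 1.42 in Proto libraries, which were the lowest.

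Genes with histone in the product name were nearest to 5 members, of which 4 were lower in GMC and GC in limma. Of all members with no match 88.8% were called lower, and of all THSs 16.6%. The member at HTA13 had a log2 fold change of -0.82 and -0.35 after loess (limma adjusted p = 0.05), and those at AT3G27360, HTB4 and HTA7 had -0.58, -0.68 and -0.70 and, after loess, -0.05, -0.06 and -0.09 (limma adjusted p = 0.77, 0.62 and 0.52). AT2G25625 had -0.52 (limma adjusted p = 0.055).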
